A study of Mus musculus with 4 samples.

Results

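Heat shock proteins are molecular chaperones that bind unfolded or newly made proteins and hold, fold or release them. The HSP70 proteins work in a cycle of ATP hydrolysis that is started by J-domain co-chaperones and ended by nucleotide exchange factors. HSP90 takes over part-folded clients such as kinases and steroid receptors. When proteins misfold, the transcription factor HSF1 is freed to bind heat shock elements, which are repeats of the bases GAA in alternating orientation, and raises the transcription of many of these genes. In the endoplasmic reticulum the unfolded protein response, with the factors ATF6, XBP1 and ATF4, serves the same end. Neurons express the constitutive chaperones at high levels, where they also serve synaptic vesicle recycling and clathrin uncoating.

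A total of 10 heat shock and chaperone genes are described here, out of 53465 gene identifiers measured. They were chosen by symbol, with earlier results of these data known, and each symbol matched 1 Ensembl identifier in a GENCODE annotation of GRCm38. They are the inducible HSP70 genes Hspa1a and Hspa1b, the co-chaperones Dnajb1 and Hsph1, the cytosolic HSP90 gene Hsp90aa1, the constitutive HSP70 gene Hspa8, the small heat shock gene Hspb1, the mitochondrial chaperonin genes Hspd1 and Hspe1, and Hspa5 of the endoplasmic reticulum. All 10 passed the default low-count filter, as did 17528 identifiers in all.

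The RNA came from the lateral habenula, a small nucleus of the epithalamus, of C57BL/6 mice that were group-housed (2 libraries) or socially isolated (2 libraries). The series title calls the isolation acute. The sources used here do not give its length, the age and sex of the mice, or whether a library is 1 animal or a pool. The p-values therefore reflect only how these libraries vary, which may be technical. Both groups share the strain and the tissue, and no allele or drug is named for either. Levels are given as CPM, the read count relative to the TMM-scaled library total, and differences as log2 fold changes of isolated against group-housed.

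Library totals ranged from 20897605 to 26428152 counts, so that 3 counts corresponded to 0.113 to 0.146 CPM. The 11 lateral habenula markers were all measured, among them the habenular receptor gene Gpr151 at 352 to 426 CPM and the transcription factor gene Pou4f1 at 130 to 162 CPM. The edgeR quasi-likelihood test called 2 genes of 17528 (0.0114%) between the groups at an adjusted p of 0.05, both higher in isolated libraries and neither a chaperone gene. The library with the fewest counts was group-housed replicate 1. In that library the choroid plexus gene Ttr, transthyretin, was lowest, at 3.41 CPM. Ttr was highest in group-housed replicate 2, at 102 CPM, beside 22.1 and 26.9 CPM under isolation.

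Promoter sequences are shown for reference, since the windows of several members hold letters of the element that HSF1 binds. Only exact matches were searched, so a window without a match is not shown to lack the element. Any part of the element in the levels described below was not tested. RefSeq windows on GRCm38.p6, from 250 bases before to 50 bases after a start site, were found for 8 of the 10 genes, with 11 windows in all. Hspa8 and Hsp90aa1 had no entry. The heat shock element was searched on both strands as a run of 3 units, GAANNTTCNNGAA, whose reverse complement begins with TTC, and as pairs of units, GAANNTTC and TTCNNGAA, each of which is its own reverse complement and can overlap the longer run. Of 32851 windows of 300 bases in the mouse table, 0.603% held the run of 3 units and 15.1% at least 1 pair. These matches describe letters, not measured binding.

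Hspa1a and Hspa1b are neighbouring, near-identical genes, and their upstream sequences are shown to make that visible. The 250 bases before the start site lie at chr17:34972157-34972406 for Hspa1a and chr17:34959239-34959488 for Hspa1b, both read 5′ to 3′ on the minus strand, with the GAANNTTC pair in capitals.
Hspa1a: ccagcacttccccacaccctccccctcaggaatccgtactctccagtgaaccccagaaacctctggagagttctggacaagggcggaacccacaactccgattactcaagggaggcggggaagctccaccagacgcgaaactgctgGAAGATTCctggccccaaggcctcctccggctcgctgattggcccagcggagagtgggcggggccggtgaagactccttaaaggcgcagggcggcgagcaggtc
Hspa1b: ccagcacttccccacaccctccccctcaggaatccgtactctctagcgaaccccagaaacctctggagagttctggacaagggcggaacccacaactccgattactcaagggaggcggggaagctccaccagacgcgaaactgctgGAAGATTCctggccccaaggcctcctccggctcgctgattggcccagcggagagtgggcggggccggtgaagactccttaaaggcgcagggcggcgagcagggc
Counted from 1 at the first base shown, with the Hspa1a base first, the sequences differ at C44T, T47C and T249G. The pair lies from base -104 to base -97 of the start site in both genes.

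The other sites are given as 30-base stretches around the match, 5′ to 3′ on the gene's own strand, with the matched span in capitals. Hspd1 and Hspe1 lie head to head on chromosome 1, and the same site, read from opposite strands, stands in the Hspe1 window and in 1 of the 2 Hspd1 windows. It holds 4 alternating units without a break, that is, 2 overlapping runs of 3. The Hspb1 stretch holds 2 separate pairs with bases between them in lower case. Hsph1 held a pair before the start site and a run of 3 units after it, and both are shown. The Hspa5 window held no heat shock pair but an ER stress element, the letters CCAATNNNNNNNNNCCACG, which 0.119% of all windows held.
Hspe1, chr1:55088053-55088082, plus strand: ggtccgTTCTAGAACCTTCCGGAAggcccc
Hspb1, chr5:135887801-135887830, plus strand: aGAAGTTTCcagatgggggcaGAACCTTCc
Hsph1 before the start, chr5:149636351-149636380, minus strand: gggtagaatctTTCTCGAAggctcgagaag
Hsph1 after the start, chr5:149636287-149636316, minus strand: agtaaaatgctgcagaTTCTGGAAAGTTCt
Hspa5, chr2:34772020-34772049, plus strand: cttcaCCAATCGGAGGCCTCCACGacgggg
Neither Dnajb1 window held a heat shock pair in these letters. The first of the Dnajb1 windows held 2 CCAAT boxes, a motif found in 37.4% of all windows.

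The cytosolic chaperone genes Hspa8 and Hsp90aa1 were the most abundant of the 10. Per kilobase of annotated exon, and averaged over the 4 libraries, the level was 281 CPM per kb for Hspa8, the HSP70 that uncoats clathrin vesicles, and 254 for Hsp90aa1. Hspa8 was above Hsp90aa1 in each of the 4 libraries, although the ranges over libraries overlapped (256 to 324 and 234 to 287 CPM per kb). Hspa5 at 78.7 and Hspd1 at 73.3 CPM per kb followed, with overlapping ranges and a changing order. The next step was Hspe1 at 41.9 and Hsph1 at 40.3, which also overlapped, and then Dnajb1 at 23.9. Hspa1b (4.85), Hspa1a (4.62) and Hspb1 (3.95 CPM per kb) were lowest, with overlapping ranges. Of the 31-base windows of a gene's transcripts, from 0% (Hsph1) to 68% (Hspa1b) also stand in another gene. The order may depend on how such reads were counted, which is not stated. The 10 genes together held 0.364% and 0.287% of the counts under group housing and 0.328% and 0.296% under isolation. The combined share was thus highest and lowest in libraries of the same group.

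**Figure D1:**
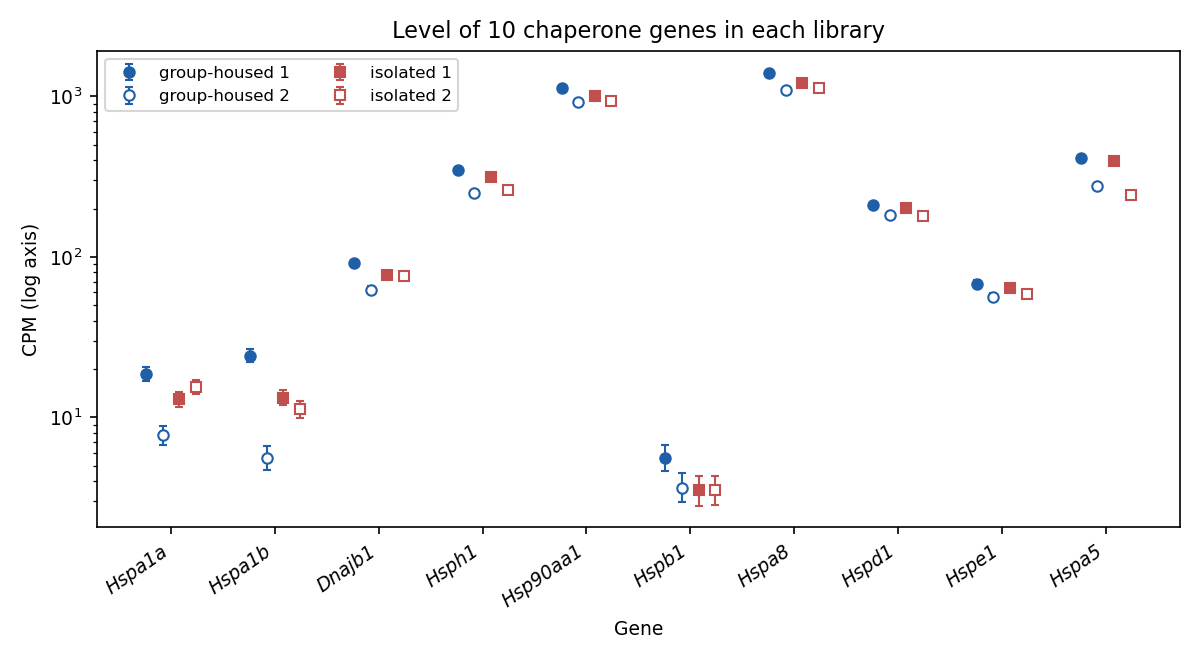
Level of the 10 chaperone genes in each library, in CPM on a log axis. Points are single libraries (circles group-housed, squares isolated, filled replicate 1, open replicate 2), and bars are exact Poisson 95% intervals of the count, which cover counting error only. The filled circle of group-housed replicate 1 is the highest point of every gene, and Hspa1b ranges from 5.60 to 24.3 CPM.

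The inducible HSP70 genes Hspa1a and Hspa1b differed most between libraries. Hspa1b (ENSMUSG00000090877, chromosome 17, 34956436 to 34959238, minus strand, 1 exon) stood at 24.3 and 5.60 CPM under group housing and at 13.3 and 11.2 CPM under isolation. The group-housed libraries thus enclosed the isolated ones, and were apart 4.33-fold. The group-housed mean was 14.9 ± 13.2 CPM and the isolated mean 12.2 ± 1.44 (SD, n = 2 each). The log2 fold change was -0.26 (SE 0.50, 95% interval -1.40 to 0.88, edgeR adjusted p = 0.9998).

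Hspa1a (ENSMUSG00000091971, chromosome 17, 34969190 to 34972156, minus strand, 1 exon) followed nearly the same order. It stood at 18.7 and 7.74 CPM under group housing and at 13.0 and 15.4 CPM under isolation. Again the isolated libraries lay between the group-housed ones, which differed 2.41-fold. The log2 fold change was 0.12 (SE 0.32, 95% interval -0.61 to 0.86, edgeR adjusted p = 0.9998). Opposite signs of the fitted changes of these neighbours therefore came with intervals that overlap widely.

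The split of reads between Hspa1a and Hspa1b is uncertain. Their coding sequences are 99.4% identical, with 8 substituted bases and a gap of 3 bases. Of the 31-base windows in Hspa1a transcripts, 63.8% also stand in Hspa1b. The sources used here do not say how reads matching both genes were counted. The opposite-strand gene Gm20481 also shares 564 exon bases with Hspa1a, and it is likewise not stated whether strand was used. Hspa1b held 56.5% and 42.0% of the summed counts under group housing and 50.5% and 42.1% under isolation. Summed, both genes gave 42.9 and 13.3 CPM under group housing and 26.2 and 26.6 CPM under isolation, so the group-housed replicates were also far apart in the sum, which does not depend on how reads were split between the genes. The summed feature had a log2 fold change of -0.07 (SE 0.40, edgeR adjusted p = 0.99985).

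The HSP70 partners Dnajb1 and Hsph1 showed the same order with a smaller span. Dnajb1 (ENSMUSG00000005483, chromosome 8, 83608193 to 83612653, plus strand) encodes the J-domain protein that loads clients onto inducible HSP70. It stood at 91.7 and 62.5 CPM under group housing and at 76.8 and 75.7 CPM under isolation. Both isolated libraries again lay between the group-housed ones. The log2 fold change was -0.01 (SE 0.15, 95% interval -0.34 to 0.32).

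Hsph1 (ENSMUSG00000029657, chromosome 5, 149614287 to 149636376, minus strand) encodes HSP110, which exchanges the nucleotide of HSP70 and helps it to take proteins out of aggregates. Its levels were 346 and 248 CPM under group housing and 316 and 260.2 CPM under isolation. Replicate 1 was the higher library in both groups. The log2 fold change was -0.04 (SE 0.15, 95% interval -0.38 to 0.29). None of its 31-base windows stood in a transcript of another gene, so its counts carry no such ambiguity.

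Hsp90aa1 and Hspa8 differed less between libraries than Dnajb1 and Hsph1, at far deeper counts. Their group-housed replicates were still 0.30 and 0.34 log2 units apart, beside a median absolute difference of 0.11 over all tested genes. Hsp90aa1 (ENSMUSG00000021270, chromosome 12, 110690605 to 110702728, minus strand), the more stress-responsive of the cytosolic HSP90 genes, stood at 1129 and 919 CPM under group housing and at 1011 and 929 CPM under isolation. Hspa8 (ENSMUSG00000015656, chromosome 9, 40800984 to 40810087, plus strand) stood at 1395 and 1101 CPM under group housing and at 1208 and 1122 CPM under isolation. For both genes group-housed replicate 2 was lowest and close to isolated replicate 2. The log2 fold changes were -0.08 (SE 0.11, 95% interval -0.33 to 0.17) for Hsp90aa1 and -0.10 (SE 0.12, 95% interval -0.37 to 0.17) for Hspa8. Both genes have processed copies in the genome. The copy that shares most windows, Gm12346 for Hsp90aa1 and Gm15459 for Hspa8, received reads equal to 0.796% and 1.04% of those of its parent gene. Of all 31-base windows, 51.4% for Hsp90aa1 and 43.5% for Hspa8 also stand in other genes. Handling of reads that match several genes is not stated, so low counts of the copies do not show that the parent genes kept all their reads.

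Hspb1 was the 1 member whose groups did not overlap, with isolated levels below. Of all 17528 tested genes, 16.3% had both isolated libraries below both group-housed libraries. Hspb1 (ENSMUSG00000004951, chromosome 5, 135887919 to 135889563, plus strand) encodes the small heat shock protein HSP25, a holdase that binds unfolding proteins and actin. It stood at 5.61 and 3.66 CPM under group housing and at 3.50 and 3.51 CPM under isolation, from 115, 94, 92 and 93 counts. Group-housed replicate 1 was high, and the remaining 3 libraries had nearly the same level. The Poisson 95% interval of group-housed replicate 2 (2.96 to 4.48 CPM) contained both isolated values. The log2 fold change was -0.39 (SE 0.23, 95% interval -0.92 to 0.15, edgeR unadjusted p = 0.134, adjusted p = 0.979), and without group-housed replicate 1 it was -0.06. A pseudogene, Hsp25-ps1, shares 52.3% of the 31-base windows of Hspb1 and received 1 to 4 counts per library.

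The mitochondrial chaperonin genes had the smallest spread of the 10. Hspd1 encodes the HSP60 ring that folds imported proteins, and Hspe1 its HSP10 lid. Hspd1 (ENSMUSG00000025980, chromosome 1, 55077835 to 55088243, minus strand) stood at 212 and 181 CPM under group housing and at 202 and 180.1 CPM under isolation. Hspe1 (ENSMUSG00000073676, chromosome 1, 55088132 to 55091307, plus strand) stood at 67.8 and 56.3 CPM under group housing and at 63.6 and 59.0 CPM under isolation. Each gene was higher in replicate 1 than in replicate 2 of both groups. The log2 fold changes were -0.04 (SE 0.09, 95% interval -0.25 to 0.16) for Hspd1 and -0.01 (SE 0.09, 95% interval -0.23 to 0.20) for Hspe1. Exons of these neighbours overlap by 112 bases on opposite strands, next to the site printed above, and reads there may be counted for either. Of the 31-base windows, 50.1% for Hspd1 and 24.8% for Hspe1 also stand in other genes.

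Hspa5 differed between the replicates of each group, in the same direction in both. Hspa5 (ENSMUSG00000026864, chromosome 2, 34771970 to 34777547, plus strand) encodes BiP, the HSP70 of the endoplasmic reticulum that also holds the sensors of the unfolded protein response inactive. It stood at 415 and 276 CPM under group housing and at 396 and 245 CPM under isolation. Both libraries numbered 1 were thus high and both numbered 2 low, 1.50-fold apart among group-housed and 1.62-fold among isolated libraries. Hspd1 had the same order with smaller gaps. Isolated replicate 2 was the lowest library for Hspa5 and Hspd1, 2 of the 10 genes, as for 27.4% of all tested genes. The log2 fold change was -0.11 (SE 0.23, 95% interval -0.63 to 0.41, edgeR adjusted p = 0.9998).

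**Figure D2:**
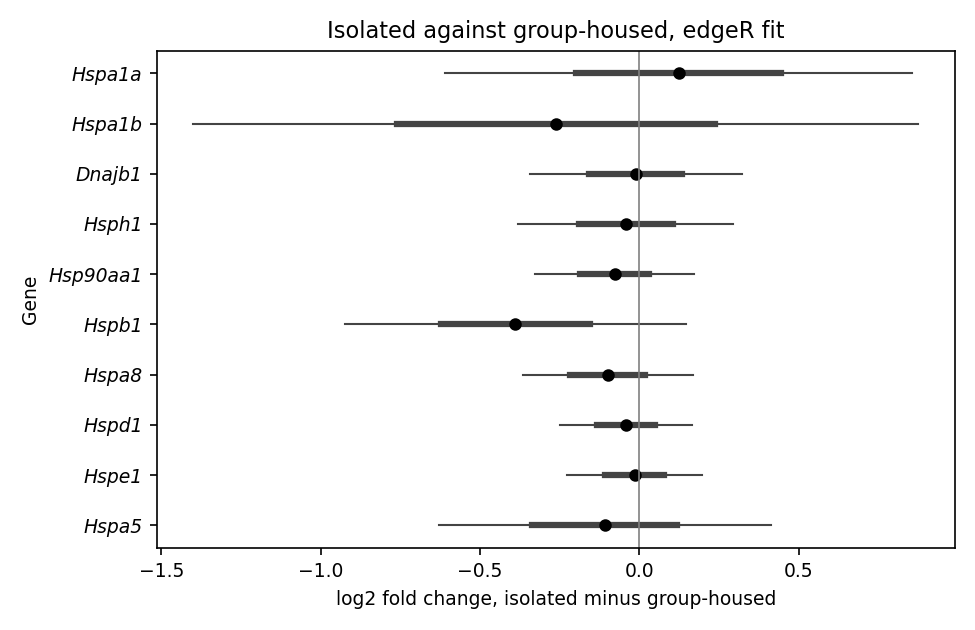
Log2 fold change of each gene, isolated minus group-housed, from the edgeR fit of 2 libraries per group. Points are estimates, thick bars 1 SE either side and thin bars 95% intervals. All 10 intervals include 0, from Hspe1 (-0.23 to 0.20) to Hspa1b (-1.40 to 0.88).

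No member passed the test between isolated and group-housed libraries. The count was 0 of 10 by edgeR's quasi-likelihood test at an adjusted p of 0.05, 0 of 10 at an unadjusted p of 0.05 (5.09% of all tested genes), and 0 of 10 by DESeq2, limma-voom and edgeR's exact test. Of the 10 fitted changes 9 were below 0, with a median of -0.06, beside 48.8% of all tested genes below 0 and a median of 0.0033. The edgeR adjusted p was 0.979 for Hspb1 and 0.9998 for the remaining 9 genes. The groups overlapped for 9 of the 10 genes, beside 66.3% of all tested genes. The intervals were narrowest for Hspd1 and Hspe1 and widest for Hspa1b and Hspa1a, so that a change of a given size was least detectable in the inducible HSP70 genes.

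The direction of the group comparison depended on single libraries. Without group-housed replicate 1, 9 of the 10 genes had isolated levels above group-housed ones (median 0.17), the exception being Hspb1. Without group-housed replicate 2 all 10 were below (median -0.27), and without isolated replicate 2 the genes split into 5 above and 5 below (median 0.00032). Without isolated replicate 1, 9 were below (median -0.15). No member passed in any of these edgeR fits (smallest adjusted p = 0.226). Each of them leaves 1 library in a group, which is assumed to vary like those of the other group, so the absence of calls there carries little weight.

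The members differed most between the group-housed replicates. All 10 genes were highest in group-housed replicate 1, as were 25.7% of all tested genes. Since the members were chosen with earlier results of these data known, such counts are a description only. For 7 of them group-housed replicate 2 was also the lowest library, and 6.79% of all tested genes had both. The count of 10 was the same with RLE size factors, with no composition factor and with the authors' deposited constants. Between the group-housed replicates the 10 genes had a median log2 difference of 0.51, beside a median absolute difference of 0.11 over all tested genes. Between the isolated replicates the median absolute difference was 0.14, beside 0.12 over all tested genes, and replicate 1 was the higher for 8 of the 10. For those 8, all but Hspa1a and Hspb1, both libraries numbered 1 lay above both numbered 2, as for 19.0% of all tested genes. The count was 7 with no composition factor. The exact Poisson intervals of the group-housed replicates were apart for all 10 genes, beside 12.2% of all tested genes, and those of the isolated replicates for 5, beside 19.5%. Such intervals hold counting error only and part more readily at high counts.

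**Figure D3:**
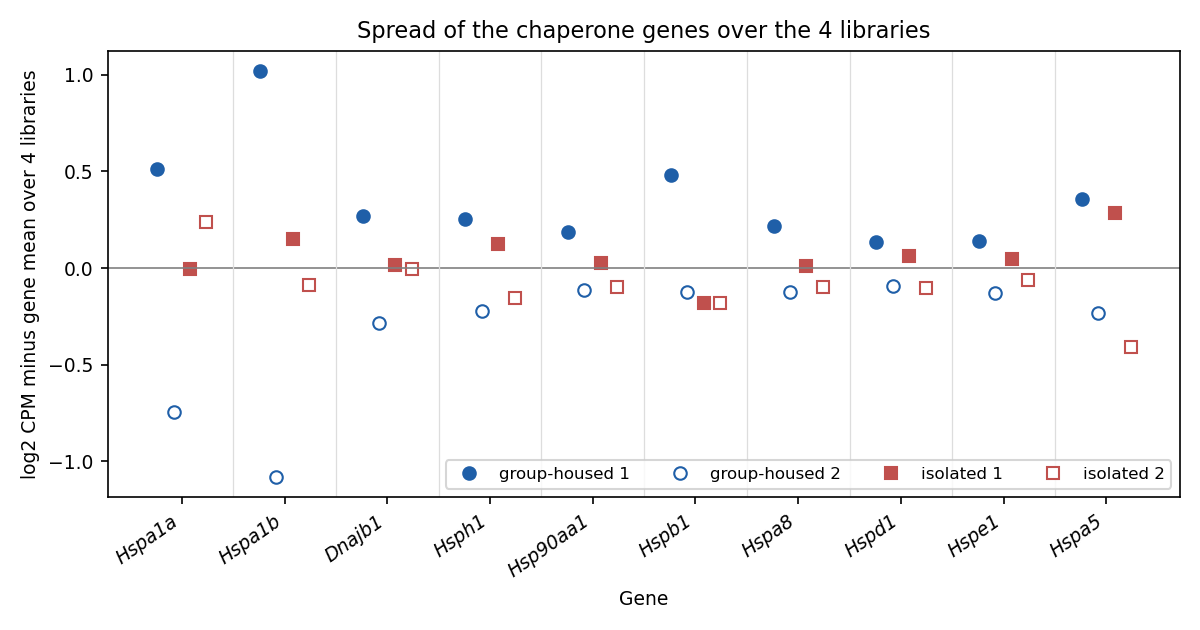
Log2 CPM of each chaperone gene in each library minus the gene's mean over the 4 libraries. Filled symbols are replicate 1 and open symbols replicate 2. Group-housed replicate 1 lies above 0 for all 10 genes, the isolated libraries of Hspa1b and Dnajb1 lie between the group-housed ones, and Hspa5 shows the widest gap between the isolated libraries.

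Other genes known to be induced by heat shock, a list also chosen with earlier results known, lay in the same order. Of 24 tested genes of that list, 20 were highest in group-housed replicate 1 and 12 lowest in group-housed replicate 2 (21.6% of all tested genes). Their median log2 level relative to each gene's mean was 0.13 and -0.09 under group housing and 0.05 and -0.05 under isolation, beside 0.26, -0.17, 0.04 and -0.10 for the 10 members. Bag3, a nucleotide exchange factor that joins HSP70 to autophagy, stood at 16.6 and 11.7 CPM under group housing and at 14.8 and 14.7 CPM under isolation. Serpinh1, the collagen chaperone HSP47, stood at 42.8 and 28.8, and 37.0 and 36.1 CPM. Stip1, which hands clients from HSP70 to HSP90, stood at 250.5 and 184, and 244 and 190.4 CPM. None of the 24 passed between the groups (0 by edgeR, 0 at an unadjusted p of 0.05), and the median log2 fold change was -0.03. The highest fold change was 0.13 for Rgs2, a regulator of G protein signalling, and the lowest -0.22 for Hmox1, heme oxygenase. Ubb, a polyubiquitin gene, was the most abundant of the list per kilobase, at 459 CPM per kb.

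The heat shock factor genes Hsf1 and Hsf2 varied little over the libraries. Hsf1 stood at 45.6 and 45.4 CPM under group housing and at 48.2 and 47.2 CPM under isolation, a log2 fold change of 0.07 (SE 0.07, edgeR adjusted p = 0.9998). Hsf2 stood at 36.1 and 33.0, and 34.8 and 35.8 CPM. Hsf2 was thus highest in group-housed replicate 1 and lowest in group-housed replicate 2, with small gaps, whereas Hsf1, the factor that drives the heat shock response, was not. Of the 5 tested genes of this list 2 were highest in group-housed replicate 1. Hsbp1, an HSF1-binding protein gene, was the most abundant, had the lowest fold change (-0.05) and stood at 139 to 149 CPM. Hsf4 stood at 14.2 to 16.0 CPM. The highest value, 0.44, was that of Hsf5, at 0.439 to 0.718 CPM.

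**Figure D4:**
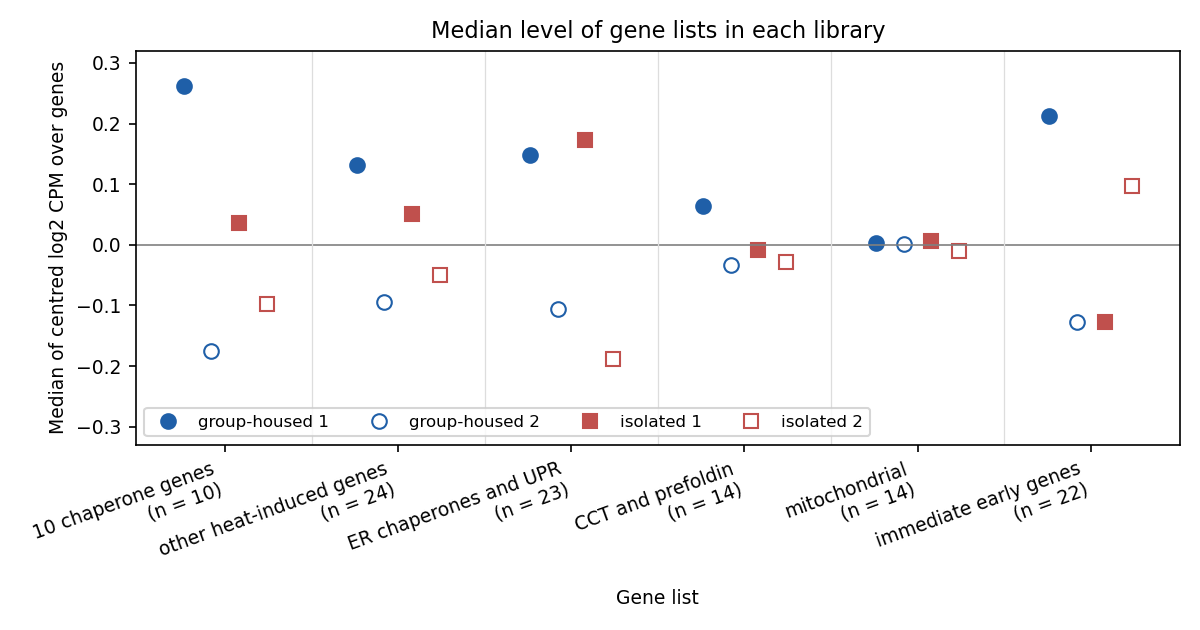
Median over the genes of a list of the centred log2 CPM, in each library. Symbols are as for the single genes, and n is the number of tested genes. Group-housed replicate 1 is highest for the chaperone genes (0.26), other heat-induced genes (0.13) and immediate early genes (0.21), whereas ER genes are high in both libraries numbered 1.

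Endoplasmic reticulum chaperones and unfolded protein response genes divided by replicate number in both groups. Their median absolute log2 difference was 0.23 between the group-housed replicates and 0.36 between the isolated ones. For the members it was 0.51 and 0.14, and for all tested genes 0.11 and 0.12. For 20 of 23 tested genes both libraries numbered 1 lay above both numbered 2, beside 8 of the 10 members and 15 of the 24 other heat-induced genes. It was 60 of all 121 tested chaperone and stress-response genes besides the members, a set that includes these 23 and these 24. The count of 20 was 18 with no composition factor. Isolated replicate 2 was lowest for 19 of the 23. That library also stood apart in markers of neighbouring tissue, whose part was not tested: of 12 thalamus markers 11 were lowest there, and of 10 ependyma markers 10 were highest there. The labels do not say what the replicate number stands for. The median centred level was 0.15 and -0.11 under group housing and 0.17 and -0.19 under isolation. Sdf2l1, a partner of BiP, stood at 16.9 and 9.41 CPM under group housing and at 18.5 and 8.84 CPM under isolation. Manf, a secreted BiP-binding neurotrophic factor, stood at 55.6 and 39.8, and 52.4 and 34.4 CPM. The lectin chaperone genes Calr and Canx were the most abundant of the list per kilobase, and Calr stood at 394 and 292, and 369 and 271 CPM. The transcription factor gene Xbp1 stood at 115 and 87.3, and 119 and 81.0 CPM. Ddit3, the CHOP gene, stood at 30.5 and 29.2, and 29.6 and 28.8 CPM, and Atf4 at 122 and 114, and 122 and 121 CPM. None of the 23 passed between the groups (0 by edgeR, 0 at an unadjusted p of 0.05). The fold changes ran from -0.14 for Edem1, which takes misfolded glycoproteins to degradation, to 0.13 for the sensor gene Ern1, with a median of -0.04.

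**Figure D5:**
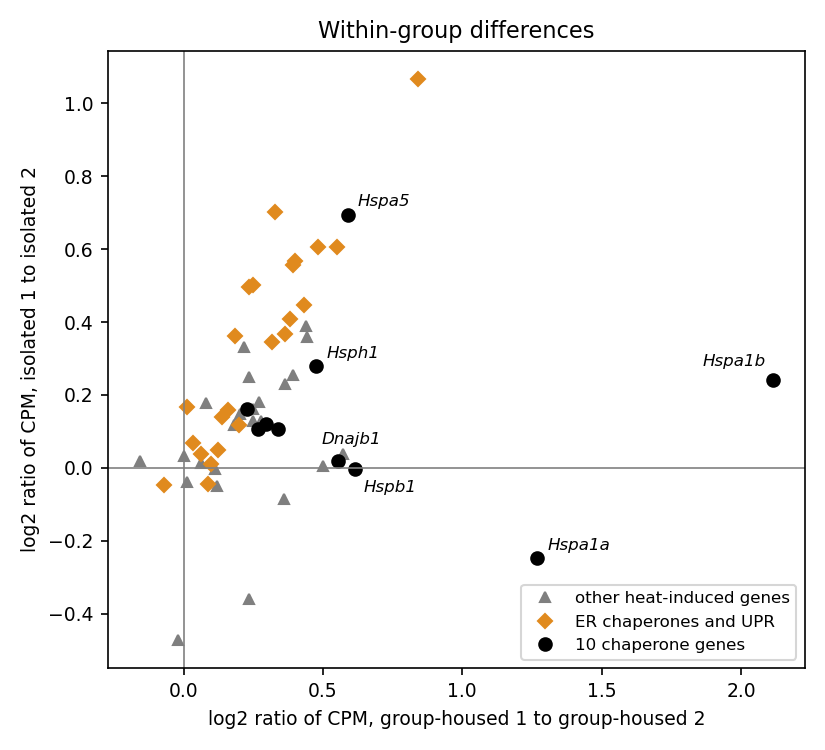
Log2 ratio of replicate 1 to replicate 2 in CPM among group-housed (x axis) and isolated libraries (y axis), each point 1 gene. Hspa1a and Hspa1b lie farthest along the x axis, with opposite signs on the y axis, and 8 of the 10 chaperone genes, all but Hspa1a and Hspb1, are above 0 on both axes.

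The remaining chaperone families showed no call between the groups. All 121 chaperone and stress-response genes tested besides the members include the lists described above. Of these, 0 passed in edgeR, 0 had an unadjusted p under 0.05, and 0 passed in DESeq2, limma-voom and edgeR's exact test. Their median log2 fold change was -0.01. Of 10 other HSP70 family genes 6 were above 0 (median 0.02). Hspa9, mitochondrial HSP70, stood at 237 to 253 CPM, Hspa4, an HSP110 relative, at 298 to 336 CPM, and Hspa13 had the lowest fold change (-0.06). Hspa1l, which neighbours the inducible genes, gave 0.81 at 0.341 to 0.686 CPM (edgeR adjusted p = 0.979) and overlaps an opposite-strand gene. Of 17 other HSP90 genes and co-chaperones 8 were above 0 (median -0.03). Hsp90ab1, the constitutive HSP90, stood at 1479 and 1221 CPM under group housing and at 1379 and 1262 CPM under isolation. Unc45a, a myosin chaperone, had the highest fold change of that list (0.16) and Aarsd1 the lowest (-0.62, at 0.381 to 0.856 CPM). Aarsd1 shares 1250 exon bases with Gm27029 on the same strand, so its counts are ambiguous.

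The J-domain genes were near 0 throughout. Of 24 genes 13 were above 0 (median 0.0046, range -0.12 for Dnajb9 to 0.09 for Dnajc16). Dnajc5, the cysteine string protein of synaptic vesicles, stood at 378 to 408 CPM, and Dnajc6, the auxilin that works with Hspa8 on clathrin, at 303 to 342 CPM. Of 11 nucleotide exchange factors 5 were above 0 (median -0.02), from -0.13 for Sil1, which acts on BiP, to 0.21 for Bag2. Bag1 stood at 82.7 to 88.2 CPM and Bag6 at 210.2 to 218 CPM. Of 14 chaperonin and prefoldin subunits 5 were above 0 (median -0.04, range -0.12 for Pfdn2 to 0.06 for Cct3). Pfdn5 and Cct8 were the most abundant per kilobase. Group-housed replicate 1 was highest for 11 of these 14, though their group-housed libraries differed by a median of only 0.08 log2 units. Of 14 mitochondrial chaperones and proteases 8 were above 0 (median 0.01, range -0.16 for Hscb to 0.08 for the protease gene Clpp), and 5 were highest in group-housed replicate 1.

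Among the 9 listed small heat shock genes 4 other than Hspb1 were tested. Cryab, αB-crystallin, which oligodendrocytes express strongly, stood at 199 and 155 CPM under group housing and at 148 and 157 CPM under isolation (log2 fold change -0.21, edgeR adjusted p = 0.979). Like Hspb1 it was high in group-housed replicate 1. Hspb8, the partner of Bag3, stood at 24.5 and 20.8, and 19.0 and 24.4 CPM, and Hspb6 at 6.89 to 10.4 CPM (log2 fold change 0.09). Hspb7 and Hspb9 had no count in any library, where 3 counts would be 0.113 to 0.146 CPM.

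Other measures that differed between the libraries are given as values, and their part in the result was not tested. Group-housed replicate 1 had the highest share of mitochondrial counts (2.12%, beside 1.69 to 1.85% in the other libraries). It had the highest share in its 10 most abundant genes (3.30%, beside 2.85 to 3.09%) and the fewest genes detected (24301, beside 24923 to 25616). That library also had the fewest counts (20897605), on which the number of genes detected depends. Immediate early genes, which also respond to handling and neuronal activity, were highest in group-housed replicate 1 for 12 of 22 tested members. Their median centred level was 0.21 and -0.13 under group housing and -0.13 and 0.10 under isolation. Fos stood at 38.7 and 20.6 CPM under group housing and at 20.2 and 25.8 CPM under isolation, and Egr1 at 59.1 and 24.4, and 22.3 and 40.1 CPM. The second-highest library of these was isolated replicate 2, whereas 8 of the 10 chaperone genes had isolated replicate 1 there. None of the 22 passed between the groups in edgeR, and 1 had an unadjusted p under 0.05. Of 12 choroid plexus markers 10 were tested, with median centred levels of -0.42 and 0.44 under group housing and -0.13 and 0.03 under isolation. Their summed level was 500.4 and 600.0 CPM, and 432 and 459 CPM. Most of that sum was Enpp2, and without it, a choice made after its values were seen, the remaining 9 summed to 55.1 and 162 CPM under group housing and 77.3 and 87.5 CPM under isolation. The untested markers Kcne2 and Kcnj13 had 0 and 1 counts in group-housed replicate 1 and 30 and 22 in group-housed replicate 2. In the isolated libraries Kcne2 had 3 and 5 counts and Kcnj13 had 2 and 5. Group-housed replicate 2 was the highest library for 6 of the 10 tested choroid plexus markers, and group-housed replicate 1 the lowest for 4.

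Markers of glia and vessels are given beside Hspb1 and Cryab, which such cells express. All markers in these lists were tested. Microglia markers were highest in group-housed replicate 1 for 8 of 10 members, with median centred levels of 0.15 and -0.01 under group housing and -0.06 and -0.10 under isolation, and summed levels of 389 to 428 CPM under group housing and 368 to 373 CPM in the isolated libraries. Oligodendrocyte markers were highest there for 6 of 10, at 0.15 and 0.08, and -0.25 and 0.03, and summed to 12327 to 13342 CPM and 10135 to 11873 CPM. Astrocyte markers were highest there for 6 of 10, at 0.11 and 0.01, and -0.07 and -0.05, and summed to 4824 to 5176 CPM and 4654 to 4659.9 CPM. Endothelial markers were highest there for 2 of 10, at -0.01 and 0.01, and -0.12 and 0.14, and summed to 169 to 172 CPM and 160.2 to 187 CPM. Thalamus markers, all 12 tested, had median centred levels of 0.14 and 0.29 under group housing and 0.01 and -0.39 under isolation, and summed to 1532 to 1595 CPM and 1279.8 to 1507 CPM. Ependyma markers, all 10 tested, stood at -0.35 and -0.30, and -0.23 and 0.86, and summed to 79.4 to 82.7 CPM and 86.1 to 169.95 CPM. Medial habenula markers, all 11 tested, stood at -0.14 and -0.24, and 0.19 and 0.22, and summed to 1683 to 1765 CPM and 2092 to 2093 CPM, and 2 of them passed the edgeR test as higher under isolation. In such tissue RNA a change in the number of cells and a change in RNA per cell cannot be told apart.

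The genes with a pattern most like that of Hspa1b, the member with the widest range, were sought among 12226 other genes of at least 5 CPM. The nearest by root mean square distance of centred log2 CPM over the 4 libraries were Wnt7a (0.39), Gm266 (0.43), Vamp7 (0.45), Cldn5 (0.45) and Nr4a1 (0.49). Wnt7a, a secreted Wnt ligand, stood at 37.5 and 18.7 CPM under group housing and at 29.1 and 25.1 CPM under isolation. Cldn5, the tight junction gene of endothelium, stood at 17.8 and 9.88, and 15.2 and 14.9 CPM, and the immediate early gene Nr4a1 at 21.1 and 11.7, and 14.5 and 18.0 CPM. With 4 libraries such likeness is a description only.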

How the data were processed

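The values tested were raw counts of reads in Ensembl genes, deposited for 4 libraries. Also deposited was a normalised signal, which equals the count times a constant of the library (0.0387 to 0.0499) and served only as an alternative scaling chosen after seeing the data. Per the labels' protocols, Trizol RNA went into TruSeq Stranded mRNA libraries. GRCm38, HTSeq, TopHat2 2.1.1, edgeR and CASAVA stand, without roles, in the submitters' processing notes. Annotation release, strand use and handling of multiply matching reads are not stated there.

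Of 53465 identifiers 53360 matched a symbol in GENCODE, and identifiers without one held 0.0253 to 0.0281% of counts. Groups and replicate numbers were taken from the sample titles. The housing conditions were tested in edgeR 4.0.16 under R 4.3.3 (TMM, filterByExpr, glmQLFit, glmQLFTest, 2-sided) with Benjamini-Hochberg adjustment over 17528 genes at 0.05, and the script was tested on simulated data. SE was derived as the log2 fold change over the root of F, and 95% intervals use 8.55 degrees of freedom. Centred levels are log2 CPM with a prior count of 2. Members and gene lists were chosen with earlier results of these data known. Genes of the wider lists were named by rule, the 2 most abundant per kilobase of exon and the highest and lowest fold change. Further examples (Bag3, Serpinh1, Hsf1, Hsf2, Sdf2l1, Manf, Xbp1, Ddit3, Atf4, Fos, Egr1 and Ttr) were picked after their values were seen. Gpr151, Pou4f1, Kcne2, Kcnj13, Hspb7 and Hspb9 were also named outside this rule. Alternatives were RLE factors, no composition factor, DESeq2 1.42.0, limma-voom 3.58.1, edgeR's exact test, 2 other filters, omission of each library, a replicate block and summing of Hspa1a with Hspa1b.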

Additional observations from a re-analysis of the deposited data

How the results depend on the processing

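The count of 0 members passing held under every alternative run, as did 0 other chaperone genes, though with a library omitted its group has 1 sample, assumed to vary like the other group. Over all genes the calls, 2 higher and 0 lower, were 42 and 10 with DESeq2, 67 and 15 with edgeR's exact test, and 15 higher with no low-count filter. Omitting a library gave 0 to 151 higher and 0 to 70 lower. The replicate numbers give no known pairing (correlation of same-numbered deviations 0.14 over genes). With the replicate block 52 genes were higher and 12 lower, 0 of them members, and Dnajb1 turned to 0.0083.

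The members' median of -0.06 ranged from -0.27 to 0.17 over the omissions, and that of the other chaperone genes, -0.01, from -0.067 to 0.043. Of 129 member values under alternatives 18 changed sign and none passed. Over the omissions Hspa1b ranged from -0.997 to 1.13, Hspa1a from -0.40 to 0.88, Hspa5 from -0.50 to 0.21, Hsph1 from -0.27 to 0.21, Dnajb1 from -0.28 to 0.29, Hspa8 from -0.27 to 0.081, Hsp90aa1 from -0.23 to 0.079, Hspd1 from -0.16 to 0.076 and Hspe1 from -0.15 to 0.12. The upper end was without group-housed replicate 1 and the lower without group-housed replicate 2, except for Hspa5, lowest without isolated replicate 1. Without isolated replicate 2, Hspa5 (0.20), Hsph1 (0.09), Hspd1 (0.04) and Hspe1 (0.04) also turned. With no composition factor Dnajb1 (0.011) and Hspe1 (0.0057) turned, and with limma-voom Hspa1b (0.17) and Dnajb1 (0.017). The cause was not tested. Counts were lowest for Hspb1 (92 to 115). For Hspa1a and Hspa1b (144 to 498) the fitted biological coefficient of variation was 22.4% and 34.4%.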
